A study of Mus musculus with 20 samples.

Results

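RNA was compared between neuronal and non-neuronal nuclei of the inflamed mouse spinal cord. The mice had experimental autoimmune encephalomyelitis (EAE), in which immunization against myelin antigens drives immune cells into the central nervous system and which serves as a model of multiple sclerosis. Nuclei were taken from the spinal cord at day 15 after active immunization and sorted by flow cytometry on NeuN, the neuronal nuclear protein that is encoded by Rbfox3. The comparison takes 10 of the 20 libraries of the study, 5 of NeuN-positive and 5 of NeuN-negative nuclei, chosen by their titles, and all 43629 genes of the count table. The other 10 libraries hold the same sorts from healthy mice, 5 of each, and enter where the EAE values are set beside them. The labels name no genotype, strain, sex, age or immunizing antigen, and do not say whether nuclei of several mice were pooled. The libraries of each group carry the numbers 1 to 5, and 2 libraries with the same number are called a pair. Nothing in the labels says that libraries come from separate mice, so the p-values measure the spread between these libraries.

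Neurons are told apart from other cells of the spinal cord by ion channels, transmitter receptors and the release machinery of synapses. The spectrin and ankyrin scaffold of the axon initial segment and of the nodes of Ranvier holds their sodium and potassium channels in place. In EAE, T cells, monocytes and activated microglia produce interferons and other cytokines. Cells that respond to interferon switch on antiviral genes, guanylate-binding proteins, MHC molecules and the immunoproteasome, a proteasome with exchanged catalytic subunits that serves antigen presentation. The question of the comparison is which sort holds these inflammatory transcripts and which the neuronal ones.

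The sort was checked on 4 genes. Rbfox3 itself (chr11:118489762-118911597 on the minus strand, GENCODE M21 of GRCm38) was read at 186, 116, 264, 238 and 166 CPM in NeuN-positive libraries 1 to 5 and at 19.8, 19.7, 32.8, 56.3 and 20.1 CPM in NeuN-negative libraries 1 to 5. CPM here are counts scaled to a common library total with TMM, which corrects for library composition. The groups did not overlap (log2 fold change 2.60 ± 0.40, edgeR adjusted p = 0.00018). Sptbn4, the beta-IV spectrin of the axon initial segment (chr7:27356383-27447686, minus strand), was read at 2502, 3206, 1384, 4026 and 3019 CPM in NeuN-positive and 87.3, 58.7, 65.2, 173 and 152 CPM in NeuN-negative libraries, with a log2 fold change of 4.60 ± 0.50 (edgeR adjusted p = 1.34e-05). Every NeuN-positive library lay several-fold above every NeuN-negative one.

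Tmem119, a membrane protein of resident microglia (chr5:113793729-113800516, minus strand), went the other way, at 12.8, 12.8, 11.3, 7.64 and 8.61 CPM in NeuN-positive and 107, 22.6, 69.4, 36.4 and 74.4 CPM in NeuN-negative libraries (log2 fold change -2.59 ± 0.37, edgeR adjusted p = 9.6e-05). NeuN-negative libraries 2 and 4 were the lowest of their group and still above the NeuN-positive ones. Tlr9, the endosomal receptor for unmethylated DNA (chr9:106222598-106226883, plus strand), was read at 0.143, 0, 0.548, 0 and 0.263 CPM in NeuN-positive and 2.73, 23.6, 1.29, 12.1 and 2.76 CPM in NeuN-negative libraries. All NeuN-negative libraries were higher, but libraries 2 and 4 were far above the other 3, so the size of the fold change rested on them. It was -5.34 ± 1.09 (edgeR adjusted p = 0.00152) with all 10 libraries and -2.78 (edgeR adjusted p = 0.0184) without pairs 2 and 4. Those 2 libraries also held the largest share of the predicted genes Gm10800 and Gm10801. The log2 fold change of Tlr9 in EAE differed from that in healthy mice by -5.16, an unstable call taken up below. Tlr9 is thus a weaker check of the sort than Tmem119.

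**Figure D1:**
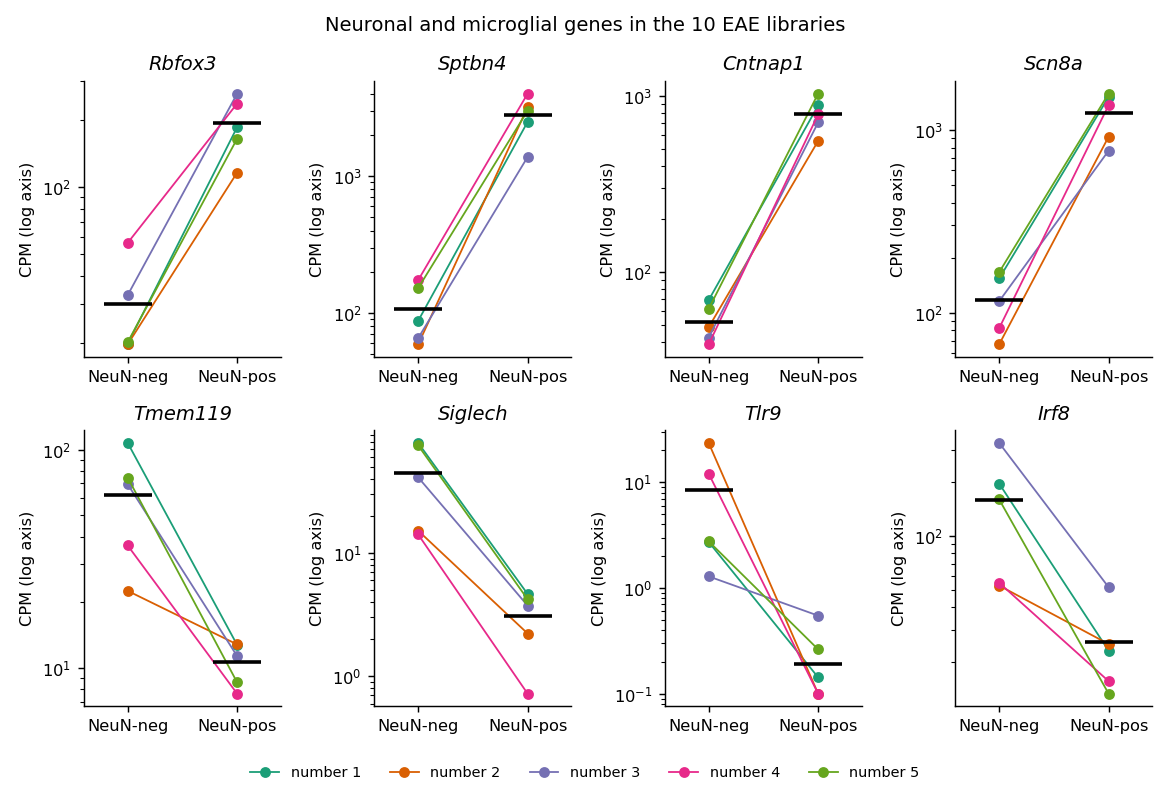
CPM (log axis) of 4 neuronal genes (upper row), and of the microglial genes Tmem119 and Siglech and the immune genes Tlr9 and Irf8 (lower row), in the NeuN-negative and NeuN-positive EAE libraries. Each colour is a pair of libraries with the same number, black bars are group means (n = 5), and the 2 Tlr9 values of 0 are drawn at 0.1 CPM. In all 8 genes the groups do not overlap, and for Tlr9 NeuN-negative libraries 2 and 4 stand above the others.

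Total counts ran from 7072200 to 18686997 in the NeuN-positive and from 3149209 to 15525441 in the NeuN-negative libraries (two-sided p = 0.286 by exact permutation of the 5 and 5 libraries, adjusted over 3 measures 0.286, where 0.00794 is the smallest p that can be had). Mitochondrially encoded genes, whose RNA lies outside the nucleus, took 1.08 to 9.35% and 2.18 to 14.6% of counts (exact permutation p = 0.151, adjusted 0.226). Genes with a count numbered 20540 to 25360 and 24837 to 30285 (exact permutation p = 0.0238, adjusted 0.0714). NeuN-negative libraries 2 and 4 stood apart: the predicted genes Gm10800 and Gm10801 took 23.6 and 13.7% of their counts, against 1.67 to 5.93% in the other NeuN-negative and 0.331 to 3.01% in the NeuN-positive libraries. They were the shallowest of the 10, and olfactory and vomeronasal receptor genes, which belong to the nose, took 0.255 and 0.214% of their counts against 0.0202 to 0.0523% in the other 3. NeuN-positive libraries 2 and 4 had the largest mitochondrial share of their sort, 9.35 and 5.30%.

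Of the 17982 genes tested in EAE, 2793 were called higher in NeuN-positive nuclei (15.5%) and 2662 lower (14.8%), 30.3% in all, at an edgeR adjusted p under 0.05. The median log2 fold change over all genes tested was -0.16, and -0.27 with DESeq2 size factors. The 5 NeuN-positive libraries were all above the 5 NeuN-negative ones for 2186 genes (12.2%) and all below for 1315 (7.31%). Without pairs 2 and 4, 2605 of the 2793 genes were again called higher (93.3%) and 2270 of the 2662 again lower (85.3%), 33 of these 2662 were not tested, and 0 of either set were called the other way. NeuN-negative libraries 2 and 4 were the 2 highest of the 10 in 656 of the 2662 genes called lower (24.6%), of which 360 were also called lower without those pairs. Leaving out NeuN-positive library 5 brought the genes called lower to 1731. Without pairs 2 and 4, 3787 of 18111 genes tested were called higher and 3768 lower. With the pair as a block in the fit these were 3596 and 3196 of 17982. List counts from those 2 fits are to be read beside these larger totals.

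The 10 largest differences towards NeuN-positive nuclei, among called genes whose mean log2 CPM was 3 or more and whose groups did not overlap, were those of Vwa5b2 (4.92), Coro6 (4.80), P2rx6 (4.61), Sptbn4, Epha10 (4.53), Sdsl (4.38), Kcnab3 (4.32), Snph (4.29), Nkpd1 (4.25) and Hcrtr1 (4.21). Kcnab3 is an auxiliary subunit of voltage-gated potassium channels, Snph anchors axonal mitochondria, Epha10 is an ephrin receptor and Hcrtr1 a receptor for orexin. P2rx6, an ATP-gated channel subunit, overlaps Slc7a4 on the other strand, and the use of strand in counting is not given in the sources used here. The 10 largest in the other direction were Bcas1os2 (-4.96), Cyp3a13 (-4.39), Nlrp1b (-4.35), Fgd2 (-4.27), Mlph (-4.11), Plxnb3 (-4.07), Pkd2l1 (-4.03), Ankub1 (-3.997), Cd244a (-3.90) and Cd72 (-3.88). Nlrp1b is an inflammasome sensor, Fgd2 a regulator of the Cdc42 GTPase in phagocytes, and Cd244a and Cd72 are receptors of lymphocytes and myeloid cells. Bcas1os2 overlaps the oligodendrocyte gene Bcas1 on the other strand, Cd244a overlaps Ly9 and Cd72 overlaps Tesk1 likewise, and their reads could be told apart from those of the partner only by strand.

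**Figure D2:**
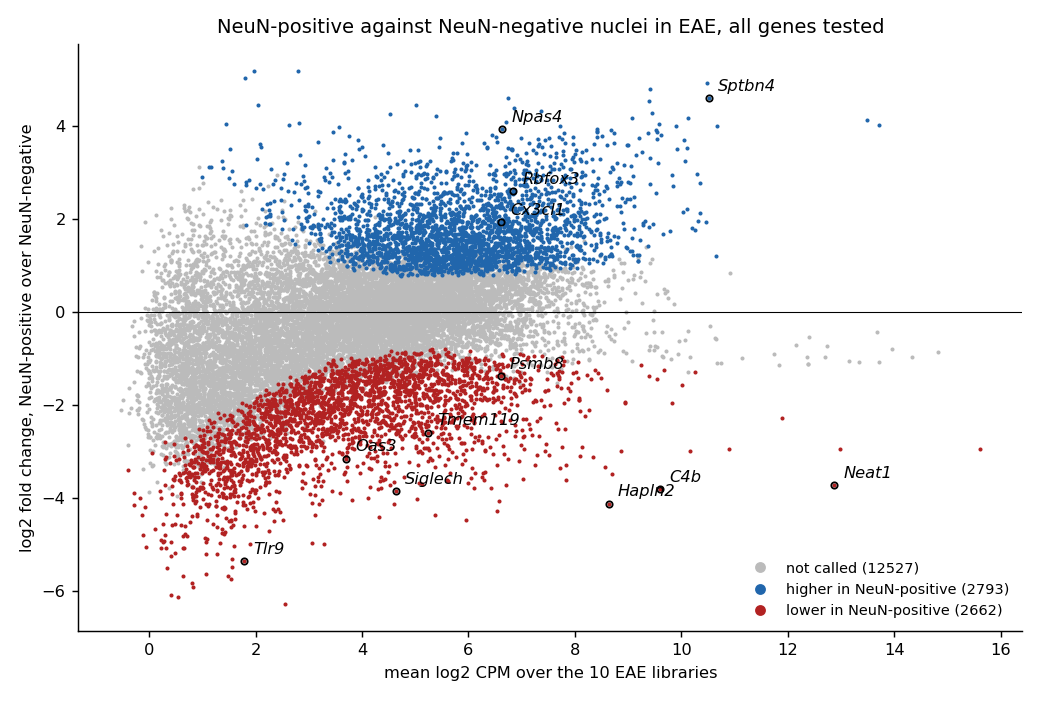
Log2 fold change of NeuN-positive over NeuN-negative nuclei in EAE (vertical axis) against mean log2 CPM over the 10 libraries (horizontal axis) for the 17982 genes tested. Blue points are the 2793 genes called higher in NeuN-positive nuclei, red points the 2662 called lower. The 12527 grey points were not called.

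Genes of neurons were found in the NeuN-positive sort. Of the 28 genes of neuronal identity tested, 26 were called higher in NeuN-positive nuclei and 0 lower, with a median log2 fold change of 2.05, against 15.5%, 14.8% and -0.16 over all genes tested. The largest was Snhg11, a neuronal noncoding RNA, at 4.12, and Eno2, the neuronal enolase, and Uchl1, a neuronal ubiquitin hydrolase, were at 2.92 and 2.77. The 2 that missed the threshold were Tubb3 at 0.44 and Nefl at 0.27, a tubulin and a neurofilament chain. The summed level of the list was 24010 to 36510 CPM in NeuN-positive and 1750 to 4386 CPM in NeuN-negative libraries, so transcripts of these genes were read in the NeuN-negative sort too. Whether those came from neurons was not tested.

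At the axon initial segment and node, 11 of 19 genes were called higher and 0 lower (median 1.35). Cntnap1, the contactin-associated protein of the paranode, was read at 884, 556, 708, 787 and 1034 CPM in NeuN-positive and 69.0, 48.4, 42.3, 38.7 and 61.6 CPM in NeuN-negative libraries (log2 fold change 3.85 ± 0.36, edgeR adjusted p = 7.91e-06). The groups were far apart in all 5 pairs. Scn8a, a voltage-gated sodium channel of nodes, was at 769.7 to 1579 CPM against 67.1 to 166 CPM (3.32 ± 0.39 log2). Their scaffold partners Ank3 (0.87) and Nfasc (0.20) and the juxtaparanodal channels Kcna1 (0.52) and Kcna2 (-0.01) did not pass the test.

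Channel genes were mostly on the same side. Of the sodium channel genes, 9 of 14 were called higher and 1 lower (median 1.69). The exception was Scn11a (-2.81), a channel of sensory neurons, for which NeuN-negative libraries 2 and 4 were the highest of the 10 and which was not called without those pairs or without NeuN-negative library 2 or NeuN-positive library 1, 3 or 5 (edgeR adjusted p 0.071 to 0.234). Of the calcium channel genes, 14 of 23 were higher and 1 lower (median 1.48), among them Cacna1b, the N-type channel of presynaptic terminals, at 272, 106, 282, 215 and 269 CPM in NeuN-positive and 27.3, 14.5, 21.3, 30.7 and 22.2 CPM in NeuN-negative libraries (log2 fold change 3.22 ± 0.37, edgeR adjusted p = 1.89e-05). The gene called lower was Cacna2d4 (-1.82), a call lost without NeuN-negative library 2 or NeuN-positive library 1, 3 or 5 (edgeR adjusted p 0.0519 to 0.119). Potassium and HCN channels were split more, with 17 of 48 higher and 2 lower (median 0.81). The 2 called lower were Kcnj10, the inward rectifier of glia (-1.14), and Kcnn4, a calcium-activated channel of immune and blood cells (-2.81). The call of Kcnj10 was lost in 7 of 20 alternative settings, leaving out NeuN-negative library 1 or NeuN-positive library 1, 3, 4 or 5 among them (edgeR adjusted p 0.0525 to 0.0895).

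Genes of excitatory transmission were called higher in 25 of 38 and lower in 1 (median 1.86). Gria4, an AMPA receptor subunit, was read at 765, 437, 519.9, 689 and 962 CPM in NeuN-positive and 52.8, 20.3, 44.7, 45.8 and 68.3 CPM in NeuN-negative libraries (log2 fold change 3.78 ± 0.40, edgeR adjusted p = 9.74e-06). Camk2b, a kinase of the postsynaptic density, was higher by 3.29 on the log2 scale. The gene called lower, Grm3, a glutamate receptor that astrocytes also carry, was at -1.54 with an edgeR adjusted p of 0.0462, and at -1.56 (edgeR adjusted p = 0.0593) and not called with the pair as a block. Its call was lost in 10 of 20 alternative settings, leaving out NeuN-negative library 3, 4 or 5 or NeuN-positive library 1, 3, 4 or 5 among them (edgeR adjusted p 0.0848 to 0.123). For inhibition by GABA and glycine the counts were 16 and 1 of 25 (median 1.53). Gad1, which makes GABA, was read at 41.4 to 59.2 CPM against 6.77 to 18.1 CPM (1.86 ± 0.31 log2), and Nlgn2, the adhesion protein of inhibitory synapses, was higher by 2.32. The exception, Gabrb2 (-2.62), was highest in NeuN-negative libraries 2 and 4 and was not called without those pairs or with the pair as a block (edgeR adjusted p = 0.0787). Its call was lost in 9 of 20 alternative settings, leaving out NeuN-negative library 4 or NeuN-positive library 1, 3 or 5 among them (edgeR adjusted p 0.0612 to 0.134).

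Synaptic vesicle release had 28 of 37 genes higher and 0 lower (median 1.62). Syt3, a calcium sensor of vesicle fusion, was read at 381, 190.0, 327, 433 and 343 CPM in NeuN-positive and 22.99, 18.4, 28.9, 28.9 and 17.4 CPM in NeuN-negative libraries (log2 fold change 3.75 ± 0.36, edgeR adjusted p = 8.21e-06). Groups that mark smaller sets of neurons gave fewer calls in EAE: 6 of 19 neuropeptides, 8 of 19 transcription factors of the dorsal horn and 3 of 16 genes of motor and cholinergic neurons were called higher. Over all genes tested the share called higher was 15.5%. In healthy mice 16 of 21, 13 of 20 and 8 of 14 genes of these lists were called higher, beside 22.8% of all genes. Their medians were 1.99, 2.52 and 1.16 there, against 0.97, 0.97 and 0.20 in EAE. The opioid precursor Penk was read at 55.5 to 104 CPM against 4.19 to 24.4 CPM (2.30 ± 0.39 log2). Chat, which makes acetylcholine, was at -0.36 and did not pass the test (edgeR adjusted p = 0.783). Without pairs 2 and 4 the list of motor and cholinergic neurons had 6 genes higher and 0 lower.

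Microglia and invading phagocytes lay on the NeuN-negative side. Of 14 genes of homeostatic microglia, 13 were called lower in NeuN-positive nuclei and 0 higher (median -2.54), and Slc2a5 (-1.66) did not pass the test. Siglech, a lectin of microglia, was read at 4.64, 2.22, 3.73, 0.721 and 4.20 CPM in NeuN-positive and 78.1, 15.2, 41.0, 14.1 and 74.5 CPM in NeuN-negative libraries (log2 fold change -3.84 ± 0.55, edgeR adjusted p = 8.89e-05). The fractalkine receptor Cx3cr1 had a log2 fold change of -3.06, whereas its ligand Cx3cl1, a membrane chemokine of neurons, was higher in NeuN-positive nuclei, at 198, 92.1, 186, 127 and 164 CPM against 55.7, 36.1, 27.0, 39.9 and 31.5 CPM (log2 fold change 1.93 ± 0.33, edgeR adjusted p = 0.000416). The ligand and its receptor were thus read on opposite sides of the sort. In bulk libraries such as these, fewer nuclei of a type and less RNA per nucleus cannot be told apart.

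Genes of activated microglia and phagocytes were called lower in 13 of 22 (median -1.22) and in 21 of 22 without pairs 2 and 4. Itgax, an integrin subunit of dendritic cells and activated microglia, was at -3.02 and Axl, a receptor for dying cells, at -2.14, while Spp1 (-0.47), Lpl (-0.58) and Apoe (-0.83) did not pass the test. The summed level of this list was 1548 to 6107 CPM in NeuN-positive and 2462 to 9053 CPM in NeuN-negative libraries, which overlap. Monocyte and macrophage genes were lower in 16 of 21 (median -1.64). Ccr2, the receptor that guides monocytes into tissue, was read at 8.13, 9.19, 10.8, 7.496 and 13.3 CPM in NeuN-positive and 52.0, 29.0, 37.7, 30.9 and 49.9 CPM in NeuN-negative libraries (log2 fold change -2.10 ± 0.31, edgeR adjusted p = 0.000121). Of 11 neutrophil genes 4 were called lower with all libraries, 10 without pairs 2 and 4, and 9 with the pair as a block in the fit, and the granule protein gene Ltf and the receptor gene Csf3r were called with all libraries at -2.04 and -3.46.

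T cell genes were called lower in 19 of 27 and higher in 0 (median -2.07). Icos, a costimulatory receptor, was read at 1.21, 3.49, 4.03, 2.45 and 2.56 CPM in NeuN-positive and 37.9, 31.0, 17.2, 10.2 and 15.9 CPM in NeuN-negative libraries (log2 fold change -3.10 ± 0.47, edgeR adjusted p = 0.00014), and Cd3e, a chain of the T cell receptor complex, at 1.43 to 4.13 CPM against 6.48 to 20.3 CPM (-2.79 ± 0.49 log2). The groups did not overlap for either gene. B cell genes were lower in 7 of 11 (median -2.76), among them the B lineage factor Pax5, at 1.14, 3.33, 0.946, 1.01 and 0.263 CPM in NeuN-positive and 12.2, 9.03, 32.1, 8.80 and 18.6 CPM in NeuN-negative libraries (log2 fold change -3.73 ± 0.62, edgeR adjusted p = 0.000317). Of 6 genes of natural killer cells, 2 were lower (Gzmb at -2.35 and Il2rb at -2.27), and 6 without pairs 2 and 4. The call of Gzmb with all libraries was lost in 10 of 20 alternative settings, leaving out NeuN-negative library 1, 2 or 3 or NeuN-positive library 1, 2, 3 or 5 among them (edgeR adjusted p 0.0528 to 0.111).

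Dendritic cell genes did not move together, with 4 of 8 lower and 1 higher. Ccr7 (-3.66), the receptor for migration to lymph nodes, and Batf3 (-2.50), a factor of cross-presenting cells, were lower. Flt3, a receptor tyrosine kinase of dendritic cell precursors, was higher in NeuN-positive nuclei, at 78.8, 19.6, 99.8, 33.9 and 83.9 CPM against 9.51, 39.0, 9.69, 12.5 and 12 CPM (log2 fold change 1.83 ± 0.52, edgeR adjusted p = 0.0131). NeuN-negative library 2 was above its NeuN-positive partner, and without pairs 2 and 4 the difference was 3.05 (edgeR adjusted p = 2.72e-05). In healthy mice Flt3 was also higher in NeuN-positive nuclei, at 104 ± 44.8 CPM against 7.53 ± 3.15 CPM (n = 5).

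The resident glia were on the NeuN-negative side as well. Of 20 genes of oligodendrocytes and myelin, 16 were called lower in NeuN-positive nuclei and 0 higher (median -2.05), but Mbp (-0.86) and Mobp (-0.95) did not pass the test. Aspa, an oligodendrocyte enzyme that breaks down N-acetylaspartate, was read at 20.3, 6.97, 12.3, 17.6 and 16.1 CPM in NeuN-positive and 184, 81.3, 258, 99.6 and 302 CPM in NeuN-negative libraries (log2 fold change -3.71 ± 0.43, edgeR adjusted p = 1.89e-05). The summed level of the oligodendrocyte and myelin list was 11040 to 98710 CPM in NeuN-positive and 35830 to 113200 CPM in NeuN-negative libraries, which overlap. NeuN-positive libraries 2 and 4 held 98710 and 50420 CPM of it, against 24010 and 36510 CPM of neuronal identity. Oligodendrocyte precursors had 11 of 14 genes lower (median -2.15), among them Neu4, a sialidase gene, at 0.951 to 4.47 CPM against 20 to 41.9 CPM (-3.75 ± 0.43 log2). Astrocyte genes were less separated, with 7 of 18 lower (median -0.98) and 15 without pairs 2 and 4. Slc1a3, their glutamate transporter, was read at 18.2, 15.4, 16.9, 3.89 and 10.6 CPM in NeuN-positive and 72.7, 26.8, 60.6, 32.1 and 46.2 CPM in NeuN-negative libraries (log2 fold change -1.93 ± 0.39, edgeR adjusted p = 0.0016). Gfap, the intermediate filament of astrocytes, was at -0.76 and missed the threshold (edgeR adjusted p = 0.147).

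Genes of reactive astrocytes were lower in 10 of 16, with the cytokine receptor subunit Osmr at -2.17 and the hyaluronan receptor Cd44 at -1.58, and 1 was called higher, the lipid kinase Sphk1 (0.92), a call lost in 7 of 20 alternative settings, leaving out NeuN-negative library 1 or 5 or NeuN-positive library 1, 3 or 4 among them (edgeR adjusted p 0.0512 to 0.0875). Endothelial genes were lower in 16 of 20 (median -1.65), with von Willebrand factor, Vwf, at 11.5 to 56.1 CPM against 51.5 to 229 CPM (-2.21 ± 0.43 log2). Pericyte and fibroblast genes were lower in 9 of 14, and 1 was called higher, Notch3 (0.98), a call lost without NeuN-negative library 3 or 5 or NeuN-positive library 1 (edgeR adjusted p 0.0508 to 0.0716). Schwann cell genes were lower in 5 of 9. Of 10 ependymal genes 1 was called higher, Foxj1, the master gene of motile cilia (1.43), and 3 lower, the dynein genes Dnah11 and Dnah12 and also Hydin. These 3 were highest in NeuN-negative libraries 2 and 4, and without pairs 2 and 4 none of them was called (edgeR adjusted p = 0.105, 0.109 and 0.0799), with 2 genes of the list higher and 1 lower. The summed level of the list in a NeuN-positive library was 122, 141 and 116% of that in its partner in pairs 1, 3 and 5, and 36.1 and 41.5% in pairs 2 and 4. The call of Foxj1 was lost without NeuN-positive library 3 or 5 (edgeR adjusted p 0.0533 to 0.0563). Of 4 erythroid genes 1 was called, Hba-a2 (2.67), which shares near-identical sequence with Hba-a1 and whose call was lost without NeuN-positive library 1 (edgeR adjusted p 0.059).

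Innate immune receptors and their effectors were held mainly by the NeuN-negative sort. Toll-like receptors and their adaptors were lower in 14 of 20 (median -2.03), and Tlr7, the endosomal receptor for single-stranded RNA, was read at 2.43, 1.74, 3.38, 3.17 and 2.43 CPM in NeuN-positive and 38.5, 15.5, 28.2, 10.02 and 12.9 CPM in NeuN-negative libraries (log2 fold change -3.03 ± 0.44, edgeR adjusted p = 9.93e-05). The interleukin-1 family and inflammasome had 14 of 16 genes lower (median -2.40), with Nlrp1b at 3.35, 0.792, 7.37, 2.16 and 4.40 CPM against 100.5, 22.9, 109, 31.5 and 112 CPM. The largest NeuN-positive value of Nlrp1b was below the smallest NeuN-negative one in a gene whose fold change was -4.35 ± 0.56 on the log2 scale. Of the phagocyte oxidase and Fc receptor genes 16 of 17 were lower (median -2.20).

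Complement genes were lower in 13 of 15 and higher in 1. C4b, a component of the classical pathway, was read at 106, 83.8, 178, 59.7 and 85.2 CPM in NeuN-positive and 1140, 245, 3241, 755 and 1626 CPM in NeuN-negative libraries (log2 fold change -3.80 ± 0.58, edgeR adjusted p = 0.000144). The gene called higher was Cfp, properdin, the stabilizer of the alternative pathway convertase, at 147, 136, 154, 180.0 and 178 CPM against 79.7, 22.6, 86.1, 38.5 and 67.5 CPM (log2 fold change 1.38 ± 0.34, edgeR adjusted p = 0.0058). All 5 NeuN-positive libraries were above the NeuN-negative ones for Cfp, and without pairs 2 and 4 the difference was 1.02 (edgeR adjusted p = 0.00402). Chemokines and their receptors were lower in 17 of 29 (median -1.50) and in 26 without pairs 2 and 4, and Cx3cl1 was the gene of this list called higher.

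Interferon signalling is ordered here from receptor to target gene. Of 21 genes for interferon receptors, JAK kinases, STAT and IRF factors, 9 were called lower in NeuN-positive nuclei and 0 higher (median -0.91). The type I receptor chain Ifnar1 was read at 27.7, 21.2, 45.9, 19.6 and 15.4 CPM in NeuN-positive and 80.0, 29.4, 98.0, 21.1 and 44.7 CPM in NeuN-negative libraries, and the groups overlapped (log2 fold change -1.10 ± 0.41, edgeR adjusted p = 0.049). The call of Ifnar1 was lost in 9 of 20 alternative settings. Among them were leaving out NeuN-negative library 1, 3 or 5 or NeuN-positive library 1, 2, 4 or 5 (edgeR adjusted p 0.0689 to 0.167). At a minimum change of 2-fold, a stricter test, the edgeR adjusted p was 0.474. Ifngr1, the ligand-binding chain of the interferon-gamma receptor, was at 19.2, 53.1, 23.4, 11.7 and 17.7 CPM against 88.4, 15.8, 67.8, 34.2 and 49.9 CPM, with NeuN-positive library 2 above its partner. Its difference missed the threshold with all libraries (-1.09 ± 0.43, edgeR adjusted p = 0.0612) and was -1.78 (edgeR adjusted p = 0.000574) without pairs 2 and 4. Leaving out NeuN-negative library 2 or NeuN-positive library 2 alone also brought it past the threshold (edgeR adjusted p = 0.025 and 0.013).

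Irf1, a transcription factor that interferon-gamma induces, was at 32.3, 53.3, 84.9, 40.2 and 51.6 CPM against 199, 52.9, 353, 72.2 and 216 CPM (log2 fold change -1.80 ± 0.45, edgeR adjusted p = 0.00616). In pair 2 the values of Irf1 were nearly equal. Irf8, a factor of the myeloid lineage, was at 13.3 to 51.8 CPM against 52.9 to 328 CPM with no overlap (-2.64 ± 0.50 log2).

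The targets of interferon were mostly read in the NeuN-negative sort. Of 45 interferon-stimulated genes 39 were called lower in NeuN-positive nuclei and 0 higher (median -2.02), and of 15 interferon-induced GTPases 14 and 0 (median -1.94). Oas3, a sensor of double-stranded RNA, was read at 1.93, 1.74, 5.08, 2.45 and 1.97 CPM in NeuN-positive and 17.6, 22.6, 28.0, 25.6 and 17.9 CPM in NeuN-negative libraries (log2 fold change -3.15 ± 0.43, edgeR adjusted p = 6.51e-05). NeuN-negative libraries 2 and 4 lay within the range of the other 3. Gbp2b, a guanylate-binding protein, was at 11.8, 10.1, 26.8, 19.0 and 18.9 CPM against 90.5, 31.6, 140.3, 34.6 and 103 CPM (log2 fold change -2.24 ± 0.42, edgeR adjusted p = 0.000788), and Trim25, a ubiquitin ligase of antiviral signalling, at 14.0 to 20.4 CPM against 44.5 to 124 CPM (-2.31 ± 0.33 log2). The guanylate-binding protein and Oas families hold near-identical copies whose reads the counting could split, so single members are uncertain. Ifit1 (0.28) and Cmpk2 (0.17) were not called.

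The starts of 4 genes of the interferon and antigen presentation lists are shown because each carries the interferon-stimulated response element, the motif GAAA, any 2 bases, GAAA, to which IRF and STAT complexes bind, in the window from 250 bases before to 50 after the start (RefSeq, GRCm38.p6). Each is written 5′ to 3′ on the strand of the gene, with the motif or its reverse complement in capitals. Oas3 (chr5:120777610-120777909, minus strand) and B2m (chr2:122147437-122147736, plus strand) hold it on the sense strand, Gbp2b (chr3:142594597-142594896, plus strand) and Psme1 (chr14:55578244-55578543, plus strand) as the reverse complement.
Oas3: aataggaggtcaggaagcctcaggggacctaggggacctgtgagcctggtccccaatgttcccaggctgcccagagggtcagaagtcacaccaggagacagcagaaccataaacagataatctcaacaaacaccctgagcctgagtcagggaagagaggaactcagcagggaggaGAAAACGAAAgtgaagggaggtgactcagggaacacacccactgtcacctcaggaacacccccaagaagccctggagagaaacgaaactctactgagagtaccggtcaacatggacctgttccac
Gbp2b: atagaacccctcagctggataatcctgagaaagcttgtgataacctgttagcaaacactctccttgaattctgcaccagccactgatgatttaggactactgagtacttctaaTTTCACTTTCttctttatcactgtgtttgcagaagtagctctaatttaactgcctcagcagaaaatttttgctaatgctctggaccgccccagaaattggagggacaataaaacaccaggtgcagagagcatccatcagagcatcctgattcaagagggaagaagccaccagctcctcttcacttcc
B2m: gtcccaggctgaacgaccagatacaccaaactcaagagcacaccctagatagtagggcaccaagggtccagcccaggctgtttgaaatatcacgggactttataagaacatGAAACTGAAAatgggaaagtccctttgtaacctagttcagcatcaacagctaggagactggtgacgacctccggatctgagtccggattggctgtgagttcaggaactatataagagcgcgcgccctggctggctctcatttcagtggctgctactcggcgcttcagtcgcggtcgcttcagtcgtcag
Psme1: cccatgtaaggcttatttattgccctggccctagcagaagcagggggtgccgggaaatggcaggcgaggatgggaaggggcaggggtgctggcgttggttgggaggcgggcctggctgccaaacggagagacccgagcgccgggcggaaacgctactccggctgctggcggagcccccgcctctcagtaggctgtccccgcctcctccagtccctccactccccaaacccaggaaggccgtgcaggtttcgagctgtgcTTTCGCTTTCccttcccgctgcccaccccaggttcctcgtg
The motif, searched on both strands, was in 32 of the 63 genes of the interferon-stimulated, GTPase, immunoproteasome and MHC class I lists that matched a window (50.8%, of 87 listed) and in 1079 of all 27025 genes with a window (3.99%). The gamma-activated site TTCNNNGAA was in 22.2% of these listed genes and in 9.55% of all. These lists were assembled from genes known to respond to interferon, so the share describes the lists.

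Transcripts of the immunoproteasome were higher in NeuN-negative nuclei in pairs 1, 3, 4 and 5 for Psmb8, Psmb9 and Psme1, with pair 2 apart. Psmb8 (chr17:34197721-34201454, plus strand), the exchanged subunit with chymotrypsin-like activity, was read at 33.2, 77.0, 71.9, 56.8 and 30.6 CPM in NeuN-positive and 155, 47.7, 269, 101 and 100.5 CPM in NeuN-negative libraries (log2 fold change -1.37 ± 0.41, edgeR adjusted p = 0.0176). In pair 2 the NeuN-positive library was the higher. Psmb9 (chr17:34181987-34187764, minus strand), the exchanged subunit that takes the place of Psmb6, was at 18.6, 26.5, 39.2, 37.6 and 20.5 CPM against 108, 12.6, 173, 63.6 and 85.7 CPM (log2 fold change -1.68 ± 0.46, edgeR adjusted p = 0.0117), again with pair 2 reversed. It overlaps Tap1 on the other strand by 212 bases. Without pairs 2 and 4 the differences were -1.96 (edgeR adjusted p = 0.00419) for Psmb8 and -2.24 (edgeR adjusted p = 0.000886) for Psmb9. The call of Psmb8 was lost when NeuN-negative library 3 (edgeR adjusted p = 0.0681), NeuN-positive library 1 (0.0724) or NeuN-positive library 5 (0.0724) was left out, and at a minimum change of 2-fold (0.252).

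Psmb10, the exchanged subunit with trypsin-like activity, was read at 83.7, 158, 85.8, 153 and 95.1 CPM in NeuN-positive and 237, 79.4, 224, 136 and 177 CPM in NeuN-negative libraries. NeuN-positive libraries 2 and 4 were above their partners, and the difference was not called with all libraries (-0.64 ± 0.33, edgeR adjusted p = 0.158). It was -1.28 (edgeR adjusted p = 0.00108) without pairs 2 and 4. The activator subunit Psme1 was at 27.0, 35.5, 52.3, 39.8 and 20.5 CPM against 116, 36.5, 159, 53.2 and 68.6 CPM (log2 fold change -1.35 ± 0.38, edgeR adjusted p = 0.0133), a call lost without NeuN-negative library 3 or NeuN-positive library 1 or 5 (edgeR adjusted p 0.0515 to 0.0618). The activator subunit Psme2 was at -0.88 and not called. Counted together, 3 of 5 immunoproteasome genes were lower, and 5 of 5 without pairs 2 and 4. Their summed level was 180.2 to 319 CPM in the NeuN-positive and 183 to 887 CPM in the NeuN-negative libraries of EAE mice, and 52.5 to 89.7 CPM and 70.9 to 99.7 CPM in those of healthy mice. The NeuN-positive libraries of EAE mice thus held more of these transcripts than any healthy library of either sort, a difference that was not tested here. Their summed level of monocyte and macrophage genes was also higher, at 416 to 2081 CPM against 40.1 to 73.9 CPM in healthy NeuN-positive libraries. For homeostatic microglia it was 130 to 258 CPM against 31.9 to 65.2 CPM. Transcripts of neurons and of other cells in a NeuN-positive library cannot be told apart here.

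The standard subunits that they replace were not called. Psmb5 was read at 5.42 to 12.4 CPM in NeuN-positive and 3.55 to 8.34 CPM in NeuN-negative libraries (log2 fold change 0.12 ± 0.47, edgeR adjusted p = 0.86). Psmb6 was at 34.4 to 66.9 CPM against 30.6 to 63.2 CPM (log2 fold change -0.08 ± 0.29, edgeR adjusted p = 0.847) and Psmb7 at 8.92 to 32.2 CPM against 13.8 to 33.9 CPM (log2 fold change -0.38 ± 0.41, edgeR adjusted p = 0.507). The groups overlapped in all 3, and the sign of each changed in at least 1 alternative setting. Of 34 genes of the standard proteasome 5 were called higher in NeuN-positive nuclei and 0 lower (median 0.17), against 15.5 and 14.8% of all genes tested: Psma3 (0.95), Psmd2 (1.29), Psmd3 (1.16), Psmd4 (0.96) and Psme4 (1.401), an alpha ring subunit, 3 subunits of the regulatory cap and an activator. Leaving out NeuN-positive library 1 or 5 lost the call of Psme4 (edgeR adjusted p 0.052 to 0.0668), and leaving out NeuN-positive library 5 that of Psmd2 (0.0553). Without pairs 2 and 4 the list had 5 genes higher and 1 lower, and its median was -0.08. The median log2 ratio within pairs 1 to 5 was -0.20, 1.35, -0.04, 0.36 and 0.14, with pair 2 the highest.

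**Figure D3:**
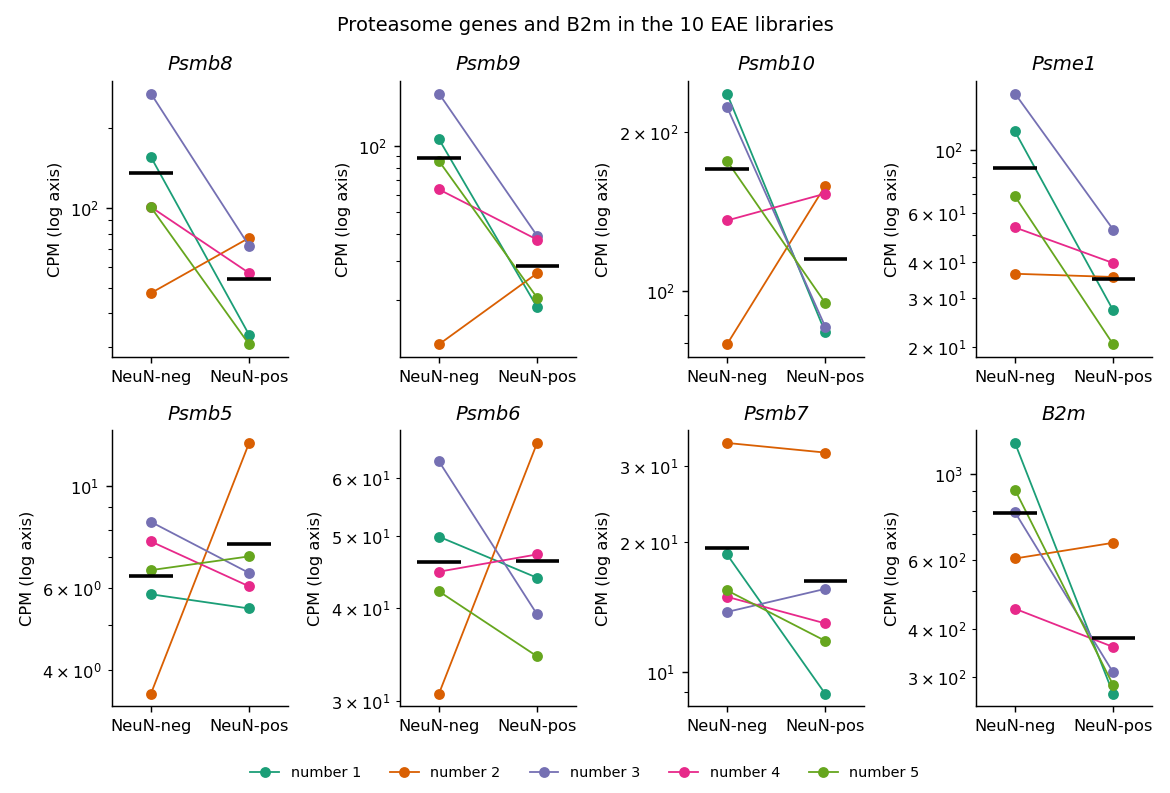
CPM (log axis) of the immunoproteasome genes Psmb8, Psmb9, Psmb10 and Psme1, of the standard subunits Psmb5, Psmb6 and Psmb7, and of B2m in the EAE libraries. Colours join libraries with the same number and black bars are group means (n = 5). In pair 2 the lines of Psmb8, Psmb9, Psmb10 and B2m rise towards NeuN-positive nuclei, whereas those of pairs 1, 3 and 5 fall in the upper row.

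MHC class I presentation was lower in 12 of 19 genes and higher in 0 (median -1.42). H2-K1, a classical class I heavy chain, was read at 445, 390.4, 913, 395 and 423 CPM in NeuN-positive and 2232, 378, 2836, 560.2 and 1570 CPM in NeuN-negative libraries (log2 fold change -1.57 ± 0.50, edgeR adjusted p = 0.0247). B2m, the light chain, was at 272, 664, 309, 359 and 286 CPM against 1199, 606, 796, 449.9 and 909 CPM (log2 fold change -1.14 ± 0.37, edgeR adjusted p = 0.0261). Both overlapped, and their calls were lost in 7 and 8 of 20 alternative settings. The largest adjusted p, 0.197 and 0.423, were those at a minimum change of 2-fold, a stricter test. Without any of NeuN-negative library 1 or NeuN-positive libraries 1, 4 and 5 neither was called, and H2-K1 also not without NeuN-negative 3 or NeuN-positive 2 and B2m not without NeuN-negative 5 or NeuN-positive 3, with adjusted p between 0.06 and 0.108. Without pairs 2 and 4 the differences were -1.91 (edgeR adjusted p = 0.00237) and -1.76 (edgeR adjusted p = 0.000362). Tap2, a subunit of the peptide transporter, was at 57.9 to 112 CPM against 67.1 to 497 CPM (-1.70 ± 0.44 log2). H2-K1 shares sequence with other class I genes.

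MHC class II presentation was lower in 8 of 11 genes (median -1.63). H2-DMb1, a chain of the molecule that loads peptides onto class II, was read at 13.3, 5.23, 14.8, 3.17 and 9.13 CPM in NeuN-positive and 77.5, 11.9, 58.6, 31.3 and 66.8 CPM in NeuN-negative libraries (log2 fold change -2.45 ± 0.48, edgeR adjusted p = 0.00116). NeuN-negative library 2 was the lowest of its group, at 11.9 CPM, below 2 of the NeuN-positive libraries. The summed level of the list was 517 to 1300 CPM in NeuN-positive and 996 to 3811 CPM in NeuN-negative libraries of EAE mice, against 31.5 to 72.4 CPM and 62.7 to 141 CPM in healthy mice.

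Of 27 genes of glycolysis 5 were called higher in NeuN-positive nuclei and 4 lower (median -0.22), shares close to the 15.5 and 14.8% of all genes tested. The counts were 8 and 5 with the pair as a block and 5 and 6 without pairs 2 and 4. Called higher were the glucose transporter Slc2a3 (1.78), the isomerase Gpi1 (1.58), the phosphofructokinases Pfkp (1.39) and Pfkm, and Eno2. Pfkm was read at 398, 256, 396, 304 and 526 CPM in NeuN-positive and 132, 28.4, 86.8, 65.5 and 81.3 CPM in NeuN-negative libraries (log2 fold change 2.21 ± 0.38, edgeR adjusted p = 0.000385). Called lower were the glucose transporter Slc2a1 (-1.43), lactate dehydrogenase Ldha (-1.18), the lactate transporter Slc16a3 (-1.56) and hexokinase 2, Hk2, at 3.75 to 20.1 CPM against 15.2 to 97.2 CPM (-2.47 ± 0.48 log2). Pfkfb3, which makes the activator of phosphofructokinase, was at 66.9, 34.4, 56.0, 39.6 and 56.2 CPM against 145, 39.4, 114, 44.4 and 80.7 CPM. It was not called with all libraries (-0.78 ± 0.35, edgeR adjusted p = 0.103), and was -0.93 (edgeR adjusted p = 0.0133) without pairs 2 and 4 and -0.70 (edgeR adjusted p = 0.0256) with the pair as a block. Its edgeR adjusted p was 0.0449 without NeuN-negative library 2.

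Nuclear-encoded genes of the respiratory chain were called higher in 7 of 47 and lower in 0 (median 0.51). Without pairs 2 and 4 they were called higher in 1 and lower in 2. With all libraries 15.5% of all genes tested were called higher and 14.8% lower. Without pairs 2 and 4 these were 3787 and 3768 of 18111 genes, and with the pair as a block 3596 and 3196 of 17982. The counts of this paragraph are to be read beside those of the same fit. NeuN-positive library 2 held 262% of the summed respiratory chain level of its partner, against 92.2 to 145% in the other pairs. The 7 mitochondrially encoded genes tested had a median of -1.10 with 0 called, and all 7 were lower without pairs 2 and 4 or with the pair as a block. Antioxidant genes were lower in 7 of 31 and higher in 1, and in 12 and 1 without pairs 2 and 4. The cystine transporter Slc7a11 was at -1.84. Of 20 genes of cholesterol synthesis 4 were higher and 0 lower (median 0.45), and 9 with the pair as a block. Dhcr7, the last enzyme of a branch of that pathway, was read at 88.3, 43.4, 105, 72.9 and 92.2 CPM in NeuN-positive and 26.2, 14.5, 34.8, 18.8 and 25.6 CPM in NeuN-negative libraries (log2 fold change 1.68 ± 0.33, edgeR adjusted p = 0.00112).

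Genes of dividing cells were mostly higher in the NeuN-negative sort. Of 29 cell cycle genes 15 were lower and 1 higher, the mitotic checkpoint kinase gene Bub1b (1.52), with a median of -1.76, and 3 were higher without pairs 2 and 4. Mki67, the proliferation antigen, was read at 6.49, 18.1, 11.2, 2.60 and 5.12 CPM in NeuN-positive and 91.7, 20, 53.4, 25.8 and 66.5 CPM in NeuN-negative libraries (log2 fold change -2.62 ± 0.49, edgeR adjusted p = 0.000796). Immediate-early genes were split, with 2 of 18 higher and 6 lower, beside 15.5 and 14.8% over all genes tested. Npas4, a transcription factor that neuronal activity induces, was at 183, 176, 105, 269.7 and 193 CPM against 7.44, 14.2, 8.34, 12.9 and 13.3 CPM (log2 fold change 3.93 ± 0.38, edgeR adjusted p = 8.61e-06), while Jun (-1.39) and Egr2 (-1.85), which glia and immune cells also use, were lower. Nr4a1 was the other gene called higher (0.96, edgeR adjusted p = 0.0469), a call lost in 9 of 20 alternative settings, leaving out NeuN-negative library 1, 2, 4 or 5 or NeuN-positive library 1, 3 or 5 among them (edgeR adjusted p 0.0578 to 0.132). Genes of axon injury and regeneration were split too, with 6 of 23 higher, among them Stmn2 (1.96), a tubulin-binding protein of axons, and Ecel1 (2.31), and 6 lower, among them the injury factor Atf3 (-1.93).

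Long noncoding RNAs, many of which stay in the nucleus, were found on both sides. Miat was read at 2842, 1197, 2229, 1841 and 2430 CPM in NeuN-positive and 181, 39.4, 125, 92.1 and 131 CPM in NeuN-negative libraries (log2 fold change 4.17 ± 0.46, edgeR adjusted p = 1.48e-05). Neat1, the scaffold of paraspeckles, went the other way, at 1314, 906, 1566, 560.0 and 908 CPM against 16140, 3013, 24390, 5277 and 18910 CPM (log2 fold change -3.71 ± 0.63, edgeR adjusted p = 0.000344). NeuN-negative libraries 2 and 4 were the lowest of their group for Neat1. Meg3 (4.03), Snhg11 and Mirg (3.38) were also higher, and of the 12 tested 7 were higher and 2 lower, the other being Pvt1 (-1.83). Malat1 was at -0.30 and not called. Miat and Neat1 overlap predicted genes.

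The separation of inflammatory and glial transcripts varied between the 5 pairs. The median log2 ratio within pairs 1 to 5 was 2.01, 2.45, 2.42, 2.37 and 2.06 for neuronal identity and 1.73, 1.80, 2.002, 1.91 and 1.55 for vesicle release. It was -2.95, -1.24, -2.45, -1.93 and -3.03 for homeostatic microglia, -2.65, -0.49, -1.77, -2.36 and -2.14 for T cells and -1.98, -0.35, -2.94, -0.85 and -2.60 for oligodendrocytes. For interferon-stimulated genes it was -2.37, -0.86, -2.10, -0.90 and -2.21, for the immunoproteasome -2.08, 0.99, -1.59, -0.75 and -1.70 and for MHC class II -2.50, 0.09, -1.45, -1.16 and -2.06. In each of these 6 lists the value of pair 2 was the highest of the 5. The median over all genes tested was -0.04, 0.19, -0.06, 0.01 and 0.02 in the same pairs.

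As shares, the summed CPM of homeostatic microglia genes in a NeuN-positive library was 10.54 to 49.3% of that in its partner, that of T cell genes 12.2 to 62.8%, and that of interferon-stimulated genes 19.4 to 65.3%. For activated microglia and phagocytes it was 23.3 to 186% and for the immunoproteasome 27.5 to 175%, where the highest value was that of pair 2 in both. For oligodendrocytes and myelin it was 18.4 to 87.2% and for astrocytes 35.7 to 108%, again highest in pair 2. For neuronal identity it was 794 to 1372%. Pair 2 is also the pair with the highest Gm10800 and Gm10801 share, the highest mitochondrial shares and the lowest total counts in both sorts. Whether these measures set its smaller separation was not tested.

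**Figure D4:**
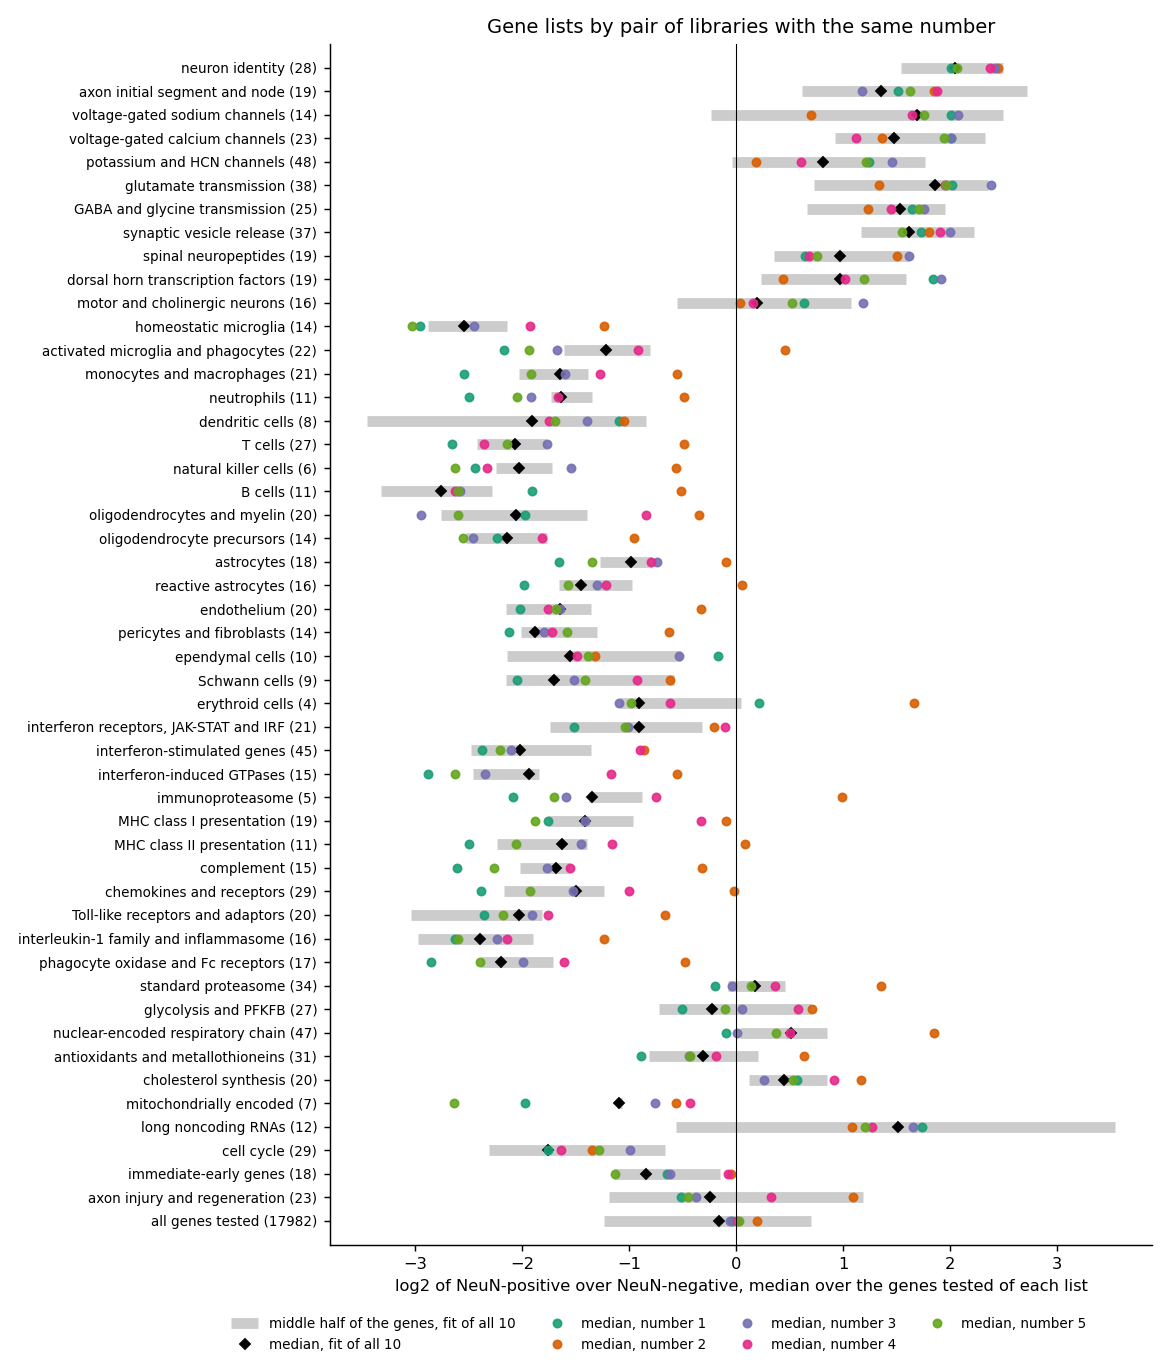
Median log2 ratio of NeuN-positive over NeuN-negative EAE libraries (horizontal axis) for each of the 49 gene lists and for all genes tested, with the number of genes tested in brackets. Black diamonds and grey bars are the median and middle range from the quartiles of the fitted fold changes over the 10 libraries, and coloured points are the medians within pairs 1 to 5. Neuronal lists lie right of 0 in every pair, and in most immune and glial lists pair 2 lies nearest to 0 or on its right.

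The sort difference in EAE was set beside that in healthy mice, which was measured in libraries that the EAE comparison does not use. In healthy mice 3910 of 17134 genes were called higher in NeuN-positive nuclei (22.8%) and 3938 lower (23%). Of the 2781 genes called higher in EAE and tested in healthy mice, 2001 were called higher there too (71.95%, and 52.6% of the 3806 called higher in healthy mice and tested in EAE). Of the 2229 called lower, 1691 were also lower there (75.9%, and 44.65% of 3787). The direction was opposite for 18 and 21 genes. A further 433 genes called lower in EAE, against 12 called higher, were tested in EAE and not in healthy mice, where their counts were too low.

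The difference of the sort difference between the conditions was called for 356 of 20444 genes as higher in EAE (1.74%) and for 168 as lower (0.822%), with a median of 0.15 over all genes. These counts were unstable: leaving out a single library moved the genes called higher to between 63 and 754 and those called lower to between 21 and 353, a fit with the pair as a block gave 1992 and 500, DESeq2 size factors gave 236 and 236, and the median over all genes was then -0.11. Of the genes named in the text, 58 were followed through the alternative settings of this test. All 10 of these that were called kept their sign in all 29 settings. Opalin, Sash3, P2rx6, Lck and Fpr2 were called in 28 of the 29, all but the minimum change of 2-fold. Opalin, a membrane protein of mature oligodendrocytes, was at 4.78, 6.97, 2.19, 6.78 and 3.15 CPM in NeuN-positive and 20.5, 8.06, 29.4, 7.37 and 28.9 CPM in NeuN-negative EAE libraries (log2 fold change -2.07 ± 0.47, edgeR adjusted p = 0.00355). In healthy mice it was at 6.72 ± 2.48 CPM against 254 ± 69.9 CPM (n = 5), and the difference of the log2 fold changes was 3.22 ± 0.56 (SE, edgeR adjusted p = 0.00569). The separation of the sorts was smaller in EAE, and its level in NeuN-negative nuclei was lower there than in healthy mice, a contrast that was not tested.

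Of the oligodendrocyte genes tested for this difference 8 of 21 were called, all with a smaller separation in EAE, and the list had a median log2 fold change of -2.05 in EAE and -4.07 in healthy mice. For homeostatic microglia the medians were -2.54 and -4.50, with 3 of 14 called the same way. Tmem119 was at 2.12 ± 0.697 CPM in NeuN-positive and 49.1 ± 5.43 CPM in NeuN-negative healthy libraries, and its difference was 2.01 ± 0.48 (SE, edgeR adjusted p = 0.0272), a call that 13 of 29 alternative settings lost, leaving out any of 11 single libraries among them (edgeR adjusted p 0.0518 to 0.0769). Sash3, an adaptor of lymphocytes and myeloid cells, was at 5.06 to 14.1 CPM against 16.8 to 55.8 CPM in EAE and at 0.137 ± 0.0897 CPM against 7.30 ± 2.35 CPM in healthy mice, a difference of 3.41 ± 0.61 (SE, edgeR adjusted p = 0.00648). The NeuN-positive level of Tmem119 and Sash3 was higher in EAE than in healthy mice, which was not tested.

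P2rx6 was separated more in EAE. It was read at 189, 154, 131, 359.5 and 185 CPM in NeuN-positive and 13.9, 2.58, 8.23, 6.55 and 8.03 CPM in NeuN-negative EAE libraries (log2 fold change 4.61 ± 0.43, edgeR adjusted p = 7.91e-06), and at 127 ± 44.8 CPM against 39.7 ± 18.4 CPM in healthy mice. The difference was 2.98 ± 0.54 (SE, edgeR adjusted p = 0.00773), with NeuN-positive library 4 the highest. Gria4 and Dhcr7 were also separated more in EAE, by 1.73 ± 0.45 (SE, edgeR adjusted p = 0.0393) and 1.83 ± 0.41 (SE, edgeR adjusted p = 0.0192). These calls were lost in 16 and 6 of 29 alternative settings, leaving out any of 14 and of 4 single libraries among them, with an edgeR adjusted p then of up to 0.151 and 0.0841. In the axon initial segment and node list 3 genes were called in this test. Mical3 was separated more in EAE, with a log2 fold change of 2.03 there and 0.18 in healthy mice, a difference of 1.94. Nfasc and Cntn2, adhesion proteins of the node and juxtaparanode that oligodendrocytes also make, were at -1.87 and -1.85 in healthy mice, lower in NeuN-positive nuclei, and at 0.20 and 0.72 and not called in EAE, differences of 2.15 and 2.67. The median difference of that list was 0.95, and those of neuronal identity and vesicle release were 0.26 and 0.11. It was below 0 in the other neuronal lists, down to -0.90 for neuropeptides and -1.58 for dorsal horn factors. Of the dorsal horn factors 2 were called lower in this test and 0 higher, and of the calcium channels 2 and 1.

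Lck, the proximal kinase of T cell receptor signalling, changed side. It was read at 9.49, 16.6, 15.5, 11.2 and 7.88 CPM in NeuN-positive and 87.2, 18.1, 74.3, 22.3 and 40.8 CPM in NeuN-negative EAE libraries (log2 fold change -2.04 ± 0.41, edgeR adjusted p = 0.00132), and at 5.80 ± 1.22 CPM against 2.55 ± 1.44 CPM in healthy mice, where it was higher in NeuN-positive nuclei (log2 fold change 1.23, edgeR adjusted p = 0.0441). The difference was -3.24 ± 0.62 (SE, edgeR adjusted p = 0.00932). Fpr2, a formyl peptide receptor of phagocytes, changed side as well, from 4.37 ± 0.830 CPM against 0.488 ± 0.885 CPM in healthy mice to 4.60 to 15.3 CPM against 12.7 to 58.4 CPM in EAE (log2 fold change -1.76 ± 0.43, edgeR adjusted p = 0.00563), a difference of -5.25 ± 0.93 (SE, edgeR adjusted p = 0.00648). The healthy NeuN-negative level of Fpr2 was near 0. Fpr2 also overlaps Fpr3 on the same strand by 6101 bases, so their reads may be mixed whether or not strand was used. The mean level of Lck and of Fpr2 was higher in each sort in EAE than in healthy mice, which was not tested.

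The interferon lists lay on the NeuN-negative side in healthy mice too, at lower levels. Interferon-stimulated genes had a median of -2.17 in healthy and -2.02 in EAE mice, and interferon-induced GTPases of -2.15 and -1.94. Their summed levels were 152 to 234 CPM in NeuN-positive and 620.2 to 822 CPM in NeuN-negative healthy libraries, against 751 to 1370 CPM and 1634 to 5109 CPM in EAE. For the GTPases the ranges were 16.2 to 34.8 CPM and 63.6 to 126 CPM against 355 to 988 CPM and 982 to 4947 CPM. In both lists all EAE NeuN-positive libraries were above the healthy NeuN-positive ones. They were below all EAE NeuN-negative ones for the interferon-stimulated genes, and the ranges met for the GTPases. In these 2 lists 1 of 45 and 0 of 15 genes were called for the difference between conditions. T cell genes were too low in healthy mice for most to be tested, 9 of 27.

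**Figure D5:**
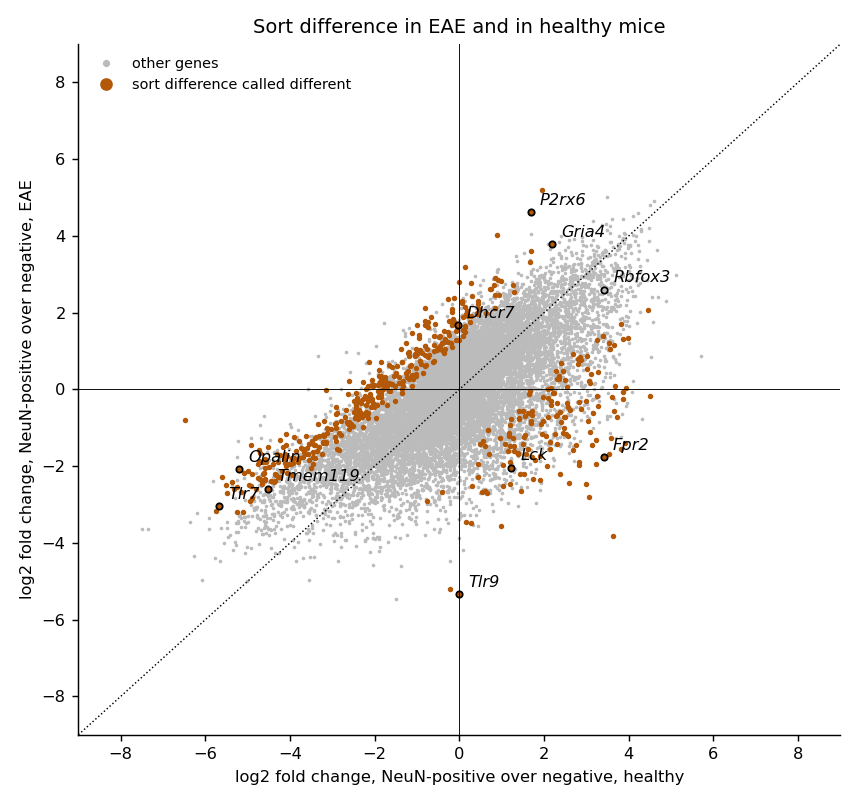
Log2 fold change of NeuN-positive over NeuN-negative nuclei in EAE (vertical axis) against that in healthy mice (horizontal axis) for the 16342 genes tested in both. Orange points are the 510 of them called in the test of the difference, and the dotted line marks equal values. Points cluster along the line (Pearson r 0.715 and Spearman rho 0.690 across genes, which are not independent replicates), with Tmem119 and Opalin nearer to 0 in EAE than in healthy mice and Lck, Fpr2 and Tlr9 below the line.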

How the data were processed

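The deposited table holds the authors' whole-number counts of reads per gene and library. Nuclei were sorted on NeuN per the series' design text, and polyA-enriched libraries were prepared with a TruSeq kit per the labels' protocols. The submitters' processing notes name STAR 2.4 and DESeq2 as tools and GRCm39 and mm10 as builds, without saying which was used for what. How reads were counted, with which annotation and whether by strand, is not given in the sources used here. Positions are those of GENCODE M21 (GRCm38), matched by gene identifier.

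Samples were grouped by their titles. Genes were filtered with filterByExpr by group, scaled with TMM and tested with edgeR 4.0.16 (R 4.3.3) in a quasi-likelihood fit of the 10 EAE libraries, with Benjamini-Hochberg adjustment over all genes tested and a threshold of 0.05. Standard errors are the log2 fold change over the root of F. The healthy libraries were fitted in the same way, and the difference between conditions as an interaction in all 20 libraries. Displayed CPM are the deposited counts, TMM-scaled over the 20 libraries. Ratios within pairs use a prior count of 0.5. The code was tested on simulated counts with the spread of the EAE libraries. Of 97 genes changed 2-fold 4 were called (4.12%), and of 98 changed 4-fold 52 were called (53.1%). The sign was wrong for 0 of them, and 3 of 17337 unchanged genes were called. The simulation changed a far smaller share of genes than the 30.3% called in the EAE comparison. The Benjamini-Hochberg cutoff depends on that share, so the shares recovered do not carry over to that comparison. A gene that was not called may still differ. Alternatives used DESeq2 1.42.0, limma 3.58.1, other filters and scalings, the pair as a block, and left-out libraries. Deviations from the group means correlated at 0.179 to 0.542 in the 5 same-numbered EAE pairs and at -0.291 to 0.103 between other numbers, over 11704 genes, and at 0.475 to 0.817 against -0.663 to 0.526 in healthy mice. The numbers were therefore taken to pair the libraries, from the data, since the labels do not say what a number shares. The main fits leave this pairing out. The fold changes, standard errors and adjusted p-values printed thus ignore it, except where the pair is named as a block. No 2 libraries held identical values.

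The named genes are a fixed set, the 10 largest differences each way among called genes whose mean log2 CPM was 3 or more and whose groups did not overlap, the 2 genes of smallest p each way per list, and the 6 largest interactions each way. Other genes named in the text, among them all that missed the threshold, were chosen after their values were seen. The genes, lists and tests were chosen with earlier results of these data known. Of 1035 list entries 1028 were in the table. Results on some genes are not reported here.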

Additional observations from a re-analysis of the deposited data

Results flagged for a closer look

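Library measures and 58 of the genes named in the text were examined for a stray library in each EAE sort. Of these 128 groups of 5 libraries, 10 held a library whose gap to its neighbour exceeded 0.71 of the range of the group, which chance gives in about 1 of 20 groups. NeuN-positive EAE library 2 was the high one for Pax5 (3.33 CPM), Ifngr1 (53.1 CPM), Psmb5 (12.4 CPM), Psmb7 (32.2 CPM) and B2m (664 CPM). NeuN-positive EAE library 3 was the high one for Oas3 (5.08 CPM) and H2-K1 (913 CPM). NeuN-positive EAE library 4 was the high one for P2rx6 (359.5 CPM). NeuN-negative EAE library 2 was the high one for Flt3 (39.0 CPM) and Psmb7 (33.9 CPM). Library 2 of either sort thus held 7 of these 10 values.

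The difference between NeuN-positive and NeuN-negative nuclei was not the same in EAE and healthy mice for 10 of the 58 genes examined, by the edgeR interaction test over all genes. The EAE value exceeded the healthy one, on the log2 scale, by 1.73 for Gria4, 2.98 for P2rx6, 2.01 for Tmem119, 2.71 for Tlr7, 3.22 for Opalin, 1.83 for Dhcr7 and 3.41 for Sash3. It was below the healthy one by -5.16 for Tlr9, -3.24 for Lck and -5.25 for Fpr2. For Tlr9, NeuN-negative EAE libraries 2 and 4 were at 23.6 and 12.1 CPM against 1.29 to 2.76 CPM in the other 3. Its difference was -4.36 without library 2 and -4.98 without library 4 of these. It was -4.04 without healthy NeuN-positive library 3. Leaving out single libraries lost the call for Tlr9 (15 of 20 libraries, edgeR adjusted p up to 0.113) and Tlr7 (15 libraries, up to 0.0938).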

How the results depend on the processing

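In EAE the genes called higher and lower numbered 4550 and 4596 with limma voom and quality weights, 1020 and 940 at a minimum change of 2-fold, and 2942 and 4065 with the DESeq2 Wald test. With the pair as a replicate block they numbered 3596 and 3196, and without any single library 2202 to 3237 and 1731 to 3482. In healthy mice they numbered 6201 and 6018 with voom, and 1859 and 2182 at a minimum change of 2-fold. For the difference between conditions the counts were 236 higher with DESeq2 size factors, 649 and 862 with the DESeq2 Wald test, 3066 and 1864 with voom, 183 and 85 without a count filter, 0 and 0 at a minimum change of 2-fold, 1992 and 500 with the replicate block, and 362 lower without EAE pairs 2 and 4 and healthy pair 3. Without any single library they ran from 63 to 754 higher and from 21 to 353 lower, and moved by over 1.5 times for 15 of the 20 libraries. These were NeuN-negative EAE libraries 2, 3 and 4, NeuN-positive EAE libraries 1, 2, 4 and 5, and libraries 1, 2 and 4 of both healthy sorts with NeuN-negative 3 and NeuN-positive 5.

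Genes that changed sign were uncalled standard proteasome subunits. Psmb5 was at -0.153 with voom and -0.152 without pairs 2 and 4, and from -0.0514 to 0.261 when single libraries were left out. Psmb6 was at 0.0933 without a count filter and 0.0012 in the fit of all 20 libraries, and from -0.181 to 0.0714 without single libraries. Psmb7 ran from -0.675 to 0.0152 without single libraries. The cause was not tested. Low counts limit Tlr9 and other genes near 0 CPM in NeuN-positive nuclei.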
